A study of Mus musculus with 20 samples.

Results

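TCA cycle enzymes of the mouse liver were examined through 9 genes: Cs, Idh2, Idh3a, Ogdh, Dlst, Suclg1, Suclg2, Fh1 and Mdh2. They were taken as a list of symbols, and each symbol matched 1 Ensembl identifier among the 53028 genes of the count table. All 9 passed the filter on low counts in every comparison, a CPM (count scaled to library size) of more than 0.5 in no fewer than 4 of the libraries fitted, and their estimated counts ranged from 115 to 8854 per library.

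The cycle runs in the mitochondrial matrix, where it oxidizes the acetyl group of acetyl-CoA to carbon dioxide and passes the electrons to NADH and FADH2 for the respiratory chain. Citrate synthase (Cs) joins acetyl-CoA to oxaloacetate, isocitrate dehydrogenases (Idh2 with NADP+, the enzyme containing Idh3a with NAD+) and the 2-oxoglutarate dehydrogenase complex (Ogdh, Dlst) release carbon dioxide, succinate-CoA ligase (Suclg1 with Suclg2 or Sucla2) makes GTP or ATP, and fumarase (Fh1) and malate dehydrogenase (Mdh2) return the carbon to oxaloacetate. In the liver the cycle also supplies carbon for gluconeogenesis, lipogenesis and the handling of nitrogen, and the enzymes are encoded in the nucleus, translated in the cytosol and imported.

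The study asked whether loss of SNORA73, a small nucleolar RNA, changed hepatic mRNA abundance and its loading on polysomes, the ribosome-laden mRNAs. All mice were male C57BL/6J on chow and carried no genetic change. They received 3 intraperitoneal injections of 3 mg/kg of a locked nucleic acid (LNA) antisense oligonucleotide, every other day, and were killed 2 days after the last. In its methods for liver polysomes the study also gave cycloheximide, which halts ribosomes on mRNA, by the tail vein shortly before death, to mice of either LNA. The control was an LNA against GFP, a jellyfish protein that these mice lack (GFP LNA; mice 1, 2, 3, 8 and 9), and the other group received an LNA against SNORA73 (SNORA73 LNA; mice 4, 6, 10, 11 and 12), whose sample labels spell the target Snora37. The series description gives an age of 8 weeks at injection, and the methods for liver polysomes, from whose lysates both RNAs came, give 10 weeks. Each mouse gave 1 library of total RNA and 1 of polysome RNA, so the 20 libraries form 4 groups of 5 and the mouse number pairs the RNAs. The LNA was injected systemically and not aimed at a cell type, and it gives a knockdown, not a deletion.

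The oligonucleotides define the groups, and their sequences are shown for that reason, 5′ to 3′, with the locked bases in capitals. Each of the 3 has 20 bases, of which 10 are locked and 10 in the middle are not. The study turned to SNORA73 LNA 2 for its later work in mice, but its passages on sequencing and the sample labels do not number the LNA.
GFP LNA: TCACCttcaccctctCCACT
SNORA73 LNA 1: AAGTCgtaggaatatGCAGG
SNORA73 LNA 2: GACTCtgagaagtcgTAGGA

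The 5′ ends of the members are shown because mRNAs that start with a C followed by pyrimidines, the TOP motif, are known for their growth-regulated loading on polysomes. In the set of RefSeq starts used here, on GRCm38.p6, an entry was found for 8 of the 9 members, all but Idh3a. Each line gives 20 bases before and 10 from the listed start of transcription, with the first 5 transcribed bases in capitals (for Ogdh, the first of 6 listed starts). For Idh2, Dlst and Suclg2 the start shown lies inside the gene span given below, downstream of its 5′ end.
Cs: ggcgggctcaagtttcgggcAGAGGgcggg (chr10:128337707-128337736, plus strand)
Idh2: ctccgccccggttgggtcccAGCCAccagg (chr7:80115341-80115370, minus strand)
Ogdh: caggccgctcctctggggccGGGCTacgcg (chr11:6291577-6291606, plus strand)
Dlst: ctggtgccgcggccggtctcACTTCcggtt (chr12:85110813-85110842, plus strand)
Suclg1: ctattgtttgcttttcaaacGTCATccttc (chr6:73248485-73248514, plus strand)
Suclg2: ccccgccccctcccgaggccTGGGCccggg (chr6:95718837-95718866, minus strand)
Fh1: gattggttacgagcgtggccGGAATctgac (chr1:175625626-175625655, minus strand)
Mdh2: atcaggtggctctggaccggGCGGCcactg (chr5:135778629-135778658, plus strand)

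A start with C and then 4 bases that are each C or T was present in 0 of the 8 windows, against 2.51% of all 32851 RefSeq windows. This count depends on the starts shown. For Suclg2, a start at the upstream end of its gene span would fit the pattern. In the 300 bases around the start (250 before, 50 after), GGGCGG, the GC box, occurred on either strand in 7 of 8 members, all but Suclg1, against 35.7% of all windows. TNAAGGTCA, the extended site of estrogen-related receptors, occurred on either strand in 0 of 8 (1.28% of all windows). GC content of these windows ran from 51.0% for Suclg1 to 68.3% for Idh2, beside a median of 52.7% over all windows. The window of Idh2 does not reach the upstream end of its gene span. A match describes letters in a window and is not evidence of binding.

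Total counts per library were 20005389 to 42023390 in total RNA and 14852951 to 33824659 in polysome RNA. Libraries were poly(A)-selected, and Snora73a and Snora73b had at most 4 counts in any library, so the knockdown could not be checked here. Their host gene Snhg3 lay at 3.90 to 5.18 CPM in total RNA of GFP LNA mice and at 3.28 to 7.44 CPM in SNORA73 LNA mice. Defining hepatocyte genes (6 of 6 listed, among them Alb and Ttr) summed to 39743 to 66270 CPM over the total RNA libraries, and none of the marker lists of other liver cells came near that sum. In total RNA, the libraries of GFP LNA mouse 9 and SNORA73 LNA mouse 10 correlated least with their own groups (r = 0.976 and 0.966), and those of SNORA73 LNA mice 4, 6, 11 and 12 correlated more closely with the GFP LNA group than with their own. The members' changes between the LNAs in total and in polysome RNA are therefore also given without mice 9 and 10.

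With the SNORA73 LNA, none of the 9 members passed the test in total RNA. The question was whether the liver's supply of these mRNAs differed between the LNAs, and edgeR's quasi-likelihood test called 0 of 9 at a Benjamini-Hochberg FDR under 0.05 and 0 of 9 at an unadjusted p under 0.05, beside 0.0303% of the 13195 genes tested that were called. The members' log2 fold changes (SNORA73 LNA over GFP LNA) ran from -0.25 for Idh2 to 0.20 for Suclg2 with a median of 0.026, and the median over all genes was 0.0070. CPM below are scaled by TMM over the 20 libraries and given in the order of the mouse numbers above.

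Cs (ENSMUSG00000005683, chr10:128337727-128362482), the entry enzyme, had 93.6, 98.3, 108, 108 and 119 CPM in GFP LNA mice and 105, 109.8, 85.1, 100.4 and 101 CPM in SNORA73 LNA mice. Mouse 9 was the highest and mouse 10 the lowest of all 10, and the groups overlapped. The log2 fold change was -0.072 (SE 0.099, 95% interval -0.29 to 0.14, FDR 0.890 by edgeR).

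Idh2 (ENSMUSG00000030541, chr7:80094845-80118608), which makes NADPH in the matrix, had 54.3, 62.2, 52.4, 56.5 and 69.3 CPM under the GFP LNA and 46.5, 69.4, 33.4, 42.9 and 55.5 CPM under the SNORA73 LNA. Of the SNORA73 LNA mice, 3 lay below all controls while mouse 6 was level with the highest of them, and this was the widest spread of any member in that group (coefficient of variation 27.5%). The log2 fold change of -0.25 had an SE of 0.17 and an interval of -0.62 to 0.12 (edgeR FDR 0.738). Idh3a (ENSMUSG00000032279, chr9:54586511-54604662), the catalytic subunit of the NAD+-dependent enzyme, had 18.7, 22.3, 17.98, 21.3 and 19.2 CPM in GFP LNA mice and 19.8, 17.4, 28.03, 22.05 and 24.7 CPM in SNORA73 LNA mice. Mouse 10 was the highest for Idh3a and the lowest for Idh2, and the groups overlapped for both.

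Ogdh (ENSMUSG00000020456, chr11:6291597-6359094), the decarboxylating subunit of the 2-oxoglutarate dehydrogenase complex, had 75.1, 72.5, 78.8, 75.1 and 94.7 CPM under the GFP LNA and 92.7, 92.8, 83.7, 94.99 and 78.4 CPM under the SNORA73 LNA. GFP LNA mouse 9 stood among the SNORA73 LNA values and the other 4 controls lay between 72.5 and 78.8. Its log2 fold change was 0.16 (interval -0.061 to 0.38, edgeR FDR 0.727). Dlst (ENSMUSG00000004789, chr12:85110822-85134091), the succinyltransferase core of the same complex, spanned 128 to 141 CPM and 114 to 146 CPM, with a log2 fold change of -0.072.

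Suclg2 (ENSMUSG00000061838, chr6:95473009-95718858), the GTP-specific beta subunit of succinate-CoA ligase, had 169, 181, 166, 190.3 and 255 CPM in GFP LNA mice and 216, 252, 198, 218 and 220.3 CPM in SNORA73 LNA mice. Again mouse 9 was the exception: it was the highest of all 10 libraries, while the other 4 controls lay below every SNORA73 LNA mouse. The log2 fold change was 0.20 (SE 0.13, interval -0.080 to 0.48, edgeR FDR 0.730). Suclg1 (ENSMUSG00000052738, chr6:73248505-73276907), the alpha subunit that every form of the ligase needs, did not share this order, with 179.6, 174, 163, 178 and 131 CPM in GFP LNA mice and 137, 204, 168, 121 and 199 CPM in SNORA73 LNA mice. For Suclg1 mouse 9 was the lowest control and mouse 11 the lowest of all.

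Fh1 (ENSMUSG00000026526, chr1:175601378-175625635), which hydrates fumarate to malate, had 139.5 ± 8.61 CPM (SD, n = 5) under the GFP LNA and 153 ± 20.5 CPM under the SNORA73 LNA. Mdh2 (ENSMUSG00000019179, chr5:135778649-135790386), which closes the cycle, had 111 ± 4.44 and 113 ± 24.3 CPM. The controls of Mdh2 were the tightest of any member (coefficient of variation 3.98%), and the SNORA73 LNA mice spread on both sides of them, from 91.1 to 149 CPM. The log2 fold changes were 0.13 (interval -0.094 to 0.36) and 0.026 (interval -0.26 to 0.31).

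**Figure D1:**
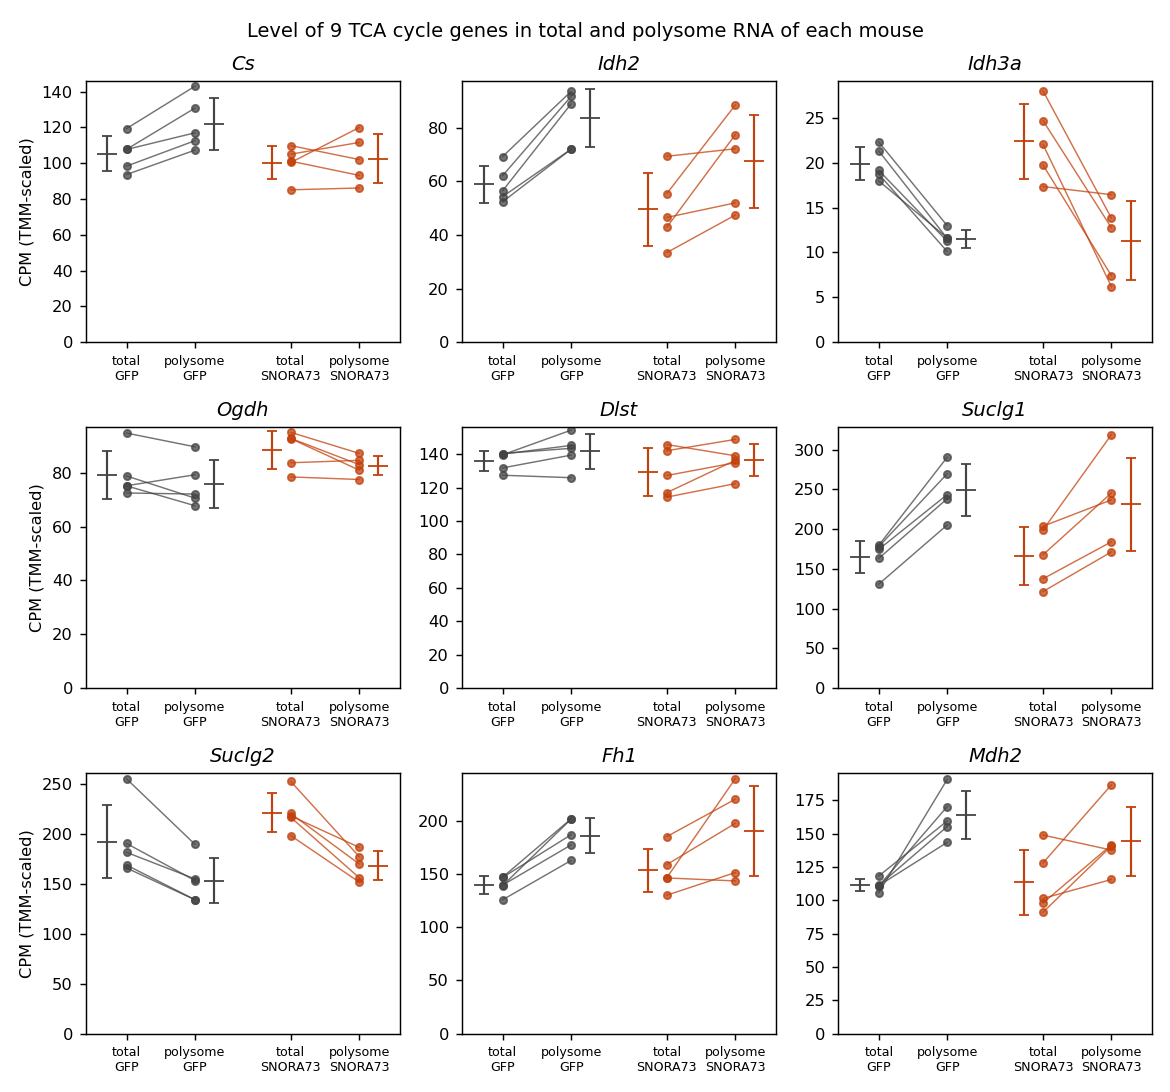
TMM-scaled CPM of the 9 members in each library, 1 point per mouse, for total and polysome RNA of GFP LNA and SNORA73 LNA mice, with the group mean and SD (n = 5). Values of the 2 LNAs overlap for every member in both RNAs, while Idh3a lies lower in polysome RNA than in total RNA, at 10.1 to 13.0 against 17.98 to 22.3 CPM in GFP LNA mice.

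Without mice 9 and 10, 0 of 9 members were called in total RNA, beside 97 of 13017 genes (0.745%). Suclg2 then had a log2 fold change of 0.36 (SE 0.093, edgeR FDR 0.131) and Ogdh 0.25 (SE 0.090, FDR 0.292). These 2 members were the only ones at an unadjusted p under 0.05, as were 1574 of all genes. The value of Idh2, the lowest member with all mice, shrank to -0.070 (FDR 0.900), Idh3a went to 0.063 and Fh1 to 0.058.

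In polysome RNA, 0 of 9 members were again called between the LNAs by edgeR (0 of 9 at an unadjusted p under 0.05), beside 0.0153% of 13060 genes. Cs had 107, 113, 117, 131 and 143 CPM under the GFP LNA and 112, 102.03, 86.1, 119.9 and 93.2 CPM under the SNORA73 LNA. Of the SNORA73 LNA mice, 3 lay below all controls and 2 lay among them. The log2 fold change of Cs was -0.25 (SE 0.13, interval -0.54 to 0.031, edgeR FDR 0.427), the lowest FDR of the 9.

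Polysome Idh2 was 72.0, 91.7, 72.0, 88.9 and 93.6 CPM in GFP LNA mice and 52.0, 72.2, 47.4, 77.4 and 88.5 CPM in SNORA73 LNA mice, so that mice 4 and 10 lay below the controls and the other 3 did not. Its log2 fold change was -0.31 with an interval of -0.70 to 0.071 (edgeR FDR 0.472). Idh3a was the most variable member here, with 10.1, 13.0, 11.6, 11.6 and 11.3 CPM in GFP LNA mice and 7.42, 16.4, 13.8, 6.19 and 12.8 CPM in SNORA73 LNA mice. Mice 4 and 11 lay below every control and mice 6 and 10 above every control, and the log2 fold change was -0.028 (interval -0.54 to 0.48).

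Mdh2 had 143, 155, 159.5, 191 and 170.3 CPM under the GFP LNA and 116, 138, 142, 141 and 187 CPM under the SNORA73 LNA, with 4 SNORA73 LNA mice below all controls and mouse 12 among them (log2 fold change -0.18, interval -0.50 to 0.13; -0.29 to -0.12 when 1 mouse was left out). The other 5 members had log2 fold changes of -0.11 for Suclg1 (-0.25 to -0.0058 when 1 mouse was left out), -0.060 for Dlst, 0.032 for Fh1, 0.12 for Ogdh and 0.13 for Suclg2. Within the SNORA73 LNA group the median coefficient of variation of the members was 17.9%, against 11.6% in GFP LNA polysomes and 9.404% and 13.4% in total RNA of the GFP LNA and SNORA73 LNA mice. Without mice 9 and 10, 0 of 9 members were called, beside 31 of 12825 genes (0.242%), and the log2 fold changes were -0.16 for Idh2, -0.13 for Cs, -0.16 for Mdh2, -0.19 for Suclg1, -0.11 for Idh3a, -0.0088 for Dlst, 0.0078 for Fh1, 0.18 for Ogdh and 0.26 for Suclg2 (edgeR FDR 0.371).

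**Figure D2:**
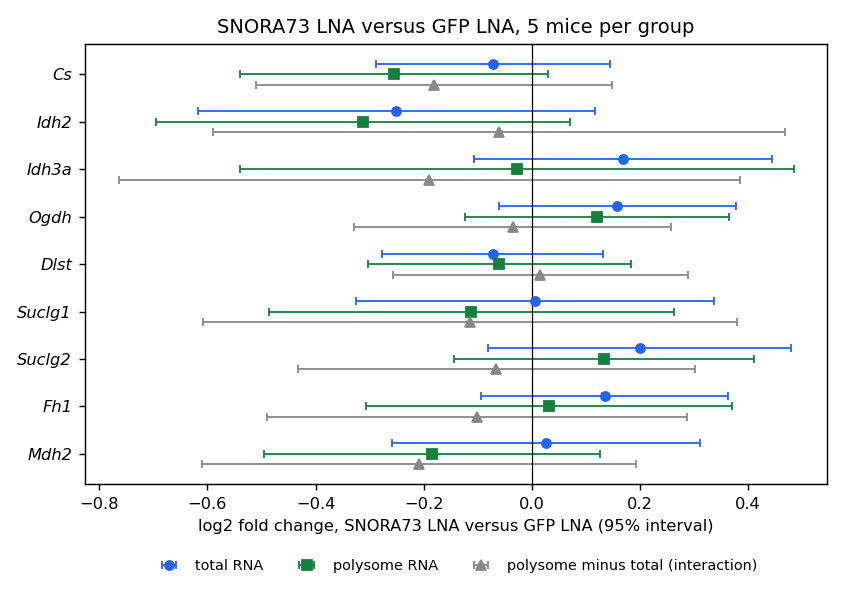
Log2 fold change of SNORA73 LNA over GFP LNA for each member, with its 95% interval, in total RNA and in polysome RNA (n = 5 mice per LNA). Every interval includes 0, and the values lie between -0.31 (Idh2, polysome RNA) and 0.20 (Suclg2, total RNA).

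In these bulk samples, fewer cells of a type and less RNA per cell cannot be told apart. Of the cell type markers, 1 was called between the LNAs, beside 0.0303% of all genes in total RNA and 0.0153% in polysome RNA. It belonged to the list for sinusoidal endothelium. The 5 genes of that list summed to 80.4 to 99.5 CPM in total RNA of GFP LNA mice and to 94.7 to 109 CPM in SNORA73 LNA mice, and to 71.8 to 82.5 against 88.0 to 98.5 CPM in polysome RNA, overlapping in total RNA only. Of the 5, Stab2, a scavenger receptor of these cells, rose in total RNA (log2 fold change 1.06, edgeR FDR 0.0497) and missed the threshold in polysome RNA (1.01, FDR 0.0857), while the other 4 were not called in either and Lyve1 had -0.100 in total RNA. The part of these cells in the members' values was not tested.

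The genes next to the members in metabolism were counted in 4 lists: the other TCA cycle genes, pyruvate dehydrogenase with its kinases and phosphatases, anaplerotic and linked matrix enzymes, and cytosolic counterparts. Of their 34 genes 32 were tested. In total RNA edgeR called 0 of 32 between the LNAs (0 at an unadjusted p under 0.05), beside 0.0303% of all genes. In polysome RNA it called 0 of 32 (5 at an unadjusted p under 0.05, 1 higher and 4 lower), beside 0.0153% of all genes. At an unadjusted p under 0.05, 4.96% of all genes were higher and 3.69% lower in total RNA. In polysome RNA these shares were 8.12% and 5.32%. The lowest values in polysome RNA were -1.05 for Pdk4 (FDR 0.278), a kinase that switches pyruvate dehydrogenase off, and -0.46 for Mdh1 (edgeR FDR 0.192), the cytosolic counterpart of Mdh2. The highest were 0.48 for Pdpr and 0.45 for Pdp2, which belong to the phosphatases that switch the complex on. In total RNA the extremes were -0.81 for Pdk4 and -0.27 for Me1, the cytosolic malic enzyme, against 0.43 for Pdpr and 0.36 for Pdp1. Both Pdpr and Pdp1 lay near the low-count filter, with group means of 0.82 to 1.21 CPM and 0.43 to 1.25 CPM over both RNAs.

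Polysome RNA was then compared with total RNA of the same livers, which asks whether an mRNA took a larger or smaller share of polysomal than of all polyadenylated RNA. In GFP LNA mice, Suclg1, Mdh2, Idh2 and Fh1 were higher in polysome RNA, by 1.498-, 1.46-, 1.41- and 1.32-fold, and Idh3a was lower, at 0.574 of its share in total RNA. Thus 5 of 9 members were called by edgeR, 4 higher and 1 lower, beside 48.7% of all 13283 genes (24.7% higher, 24.0% lower), so a share of calls of this size is near that of the genes at large. The members' median log2 fold change was 0.20 (Cs), against 0.025 over all genes and 0.12 over those with a mean CPM above 10, as the members have. With the mouse as a block, 7 of 9 were called beside 63.0% of all genes.

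The largest increase was that of Suclg1, with 179.6, 174, 163, 178 and 131 CPM in total RNA and 291, 243, 238, 269.7 and 205 CPM in polysome RNA of GFP LNA mice. All polysome values lay above all total values. The log2 fold change was 0.58 (SE 0.12, interval 0.33 to 0.84, edgeR FDR 0.00139). Mdh2 was at 111, 111, 118, 106 and 111 CPM in total RNA and, as given above, at 143 to 191 CPM in polysome RNA, again without overlap (log2 fold change 0.55, SE 0.087, edgeR FDR 2.70e-04).

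Idh2 rose from 58.9 ± 6.84 CPM (SD, n = 5) in total RNA to 83.7 ± 10.8 CPM in polysome RNA, with every polysome value above every total value (log2 fold change 0.49, SE 0.11, edgeR FDR 0.00284). For Fh1 the levels were 139, 147, 126, 147 and 139 CPM in total RNA and 177, 187, 163, 202 and 201 CPM in polysome RNA, which did not overlap either (log2 fold change 0.40, SE 0.086, FDR 0.00205).

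Idh3a went the other way. Its 17.98 to 22.3 CPM in total RNA became 10.1 to 13.0 CPM in polysome RNA, a log2 fold change of -0.80 (SE 0.097, interval -1.01 to -0.59, edgeR FDR 3.36e-05). The 2 isocitrate dehydrogenase genes among the members thus had opposite signs, Idh2 above and Idh3a below its share of total RNA.

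Suclg2 missed the threshold without the block (log2 fold change -0.34, SE 0.13, edgeR FDR 0.0532) and was called lower with the mouse as a block (-0.33, FDR 3.35e-04) and without mouse 9 (-0.31, FDR 0.0192). Cs was called higher only in the blocked fit (0.20, FDR 0.00849; 0.20, FDR 0.106 without the block) and when libraries were scaled by their totals. Dlst (0.051, interval -0.12 to 0.22) and Ogdh (-0.073, interval -0.29 to 0.15) did not pass in either fit.

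In SNORA73 LNA mice, edgeR called 2 of 9 members between the RNAs, both lower in polysome RNA, beside 33.0% of 13063 genes. They were Idh3a (-0.98, SE 0.25, FDR 0.00944) and Suclg2 (-0.39, SE 0.12, FDR 0.0247). Suclg2 was at 216, 252, 198, 218 and 220.3 CPM in total RNA and 156, 177, 152, 186 and 169.8 CPM in polysome RNA, without overlap, but it was not called when mouse 4 (FDR 0.10004) or mouse 12 (FDR 0.0697) was left out.

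The members that were higher in polysome RNA of the controls had values of 0.48 for Suclg1 (FDR 0.0832), 0.45 for Idh2 (FDR 0.132), 0.35 for Mdh2 (FDR 0.138) and 0.31 for Fh1 (FDR 0.167) by edgeR in SNORA73 LNA mice. With the mouse as a block, 5 of 9 were called beside 46.2% of all genes: Suclg1 (0.48, FDR 0.00229), Idh2 (0.45, FDR 0.0155) and Mdh2 (0.36, FDR 0.0319) higher, Idh3a and Suclg2 lower. Fh1 then lay at the threshold (FDR 0.05001).

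The ratio of polysome to total CPM within each mouse shows the same data with the overall level of each liver removed. Suclg1 had log2 ratios of 0.69, 0.48, 0.55, 0.60 and 0.65 in the GFP LNA mice and of 0.42, 0.22, 0.55, 0.50 and 0.68 in the SNORA73 LNA mice. Suclg2 had -0.33, -0.23, -0.31, -0.31 and -0.43 and, in SNORA73 LNA mice, -0.47, -0.51, -0.39, -0.22 and -0.38. In each of the 10 mice, then, Suclg1 lay above 0 and Suclg2 below, and Suclg2 kept within a band of -0.51 to -0.22.

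Idh2 was also above 0 in 10 of 10 mice, with a mean of 0.50 ± 0.10 (SD, n = 5) under the GFP LNA and 0.45 ± 0.34 under the SNORA73 LNA. Idh3a was below 0 in 10 of 10, with log2 ratios of -0.89, -0.78, -0.63, -0.88 and -0.77 in GFP LNA mice and -1.41, -0.077, -1.02, -1.83 and -0.95 in SNORA73 LNA mice. The controls stayed within a narrow range, whereas the SNORA73 LNA mice ran from near 0 in mouse 6 to the lowest value of the set in mouse 11. Fh1 and Mdh2 were above 0 in 9 of 10 mice, mouse 6 being the exception for both. Ogdh (-0.064 ± 0.099 and -0.096 ± 0.091) and Dlst (0.059 ± 0.060 and 0.081 ± 0.10) stayed close to 0, and Cs had 0.21 ± 0.063 in GFP LNA and 0.027 ± 0.15 in SNORA73 LNA mice.

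**Figure D3:**
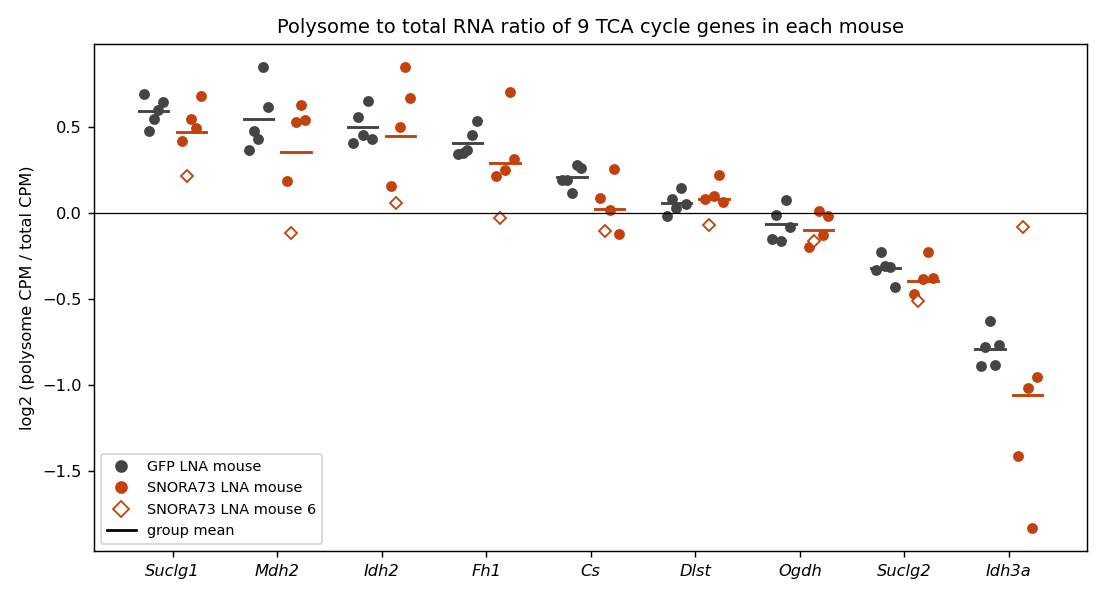
Log2 ratio of polysome to total CPM of each member within each mouse, with GFP LNA and SNORA73 LNA mice apart and SNORA73 LNA mouse 6 marked. Suclg1 and Idh2 lie above 0 and Suclg2 and Idh3a below 0 in all 10 mice, and the values of mouse 6 span 0.727, less than in any other mouse.

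SNORA73 LNA mouse 6 stood apart in this measure. Over 6334 genes with a mean CPM above 10, the interquartile range of its log2 ratios was 0.580, against 0.742 to 1.07 in the other 9 mice. The members' ratios in mouse 6 spanned 0.727 from lowest to highest, against 1.18 to 2.68 in the other 9. After group means were removed, its total RNA library also correlated less with its own polysome library than with that of another SNORA73 LNA mouse (r = 0.174 and 0.405). Without mouse 6 and with the mouse as a block, an alternative added after seeing the data, 6 of 9 members were called in SNORA73 LNA mice, beside 49.5% of 12835 genes: Fh1 (0.34, FDR 0.0166) joined the 5 named above, and Idh3a stood at -1.31 (edgeR FDR 6.55e-05).

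Whether the polysome to total ratio differed between the LNAs was asked of the interaction term in a model of all 20 libraries. No member was called by edgeR: 0 of 9 passed, with 0 of 9 at an unadjusted p under 0.05, beside 0.00725% of 13795 genes with and without the mouse as a block. The interaction terms ran from -0.21 for Mdh2 (interval -0.61 to 0.19) to 0.016 for Dlst (interval -0.26 to 0.29), with a median of -0.10, against -0.014 over all genes and -0.021 over those with a mean CPM above 10. The term of Mdh2 rested in part on mouse 6: it was -0.074 without that mouse, and -0.075 with the block as well. Those of Idh3a (-0.19, interval -0.76 to 0.39) and Cs (-0.18, interval -0.51 to 0.15) followed Mdh2 with all mice. The term of Idh3a ran from -0.44 to -0.039 when 1 mouse was left out, the value nearest 0 without mouse 11, and without mouse 6 and with the block it was -0.49 (edgeR FDR 0.375). Of the other 32 metabolic genes 0 were called, and their median was -0.12, with the lowest term in Pck2 (-0.38), the mitochondrial enzyme that makes phosphoenolpyruvate, and the highest in Pdp2 (0.32).

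Subunits of 1 enzyme had ratios apart from each other. These pairs were chosen after the values were seen and are described without a test. Over 6334 genes with a mean CPM above 10, the SD of the log2 ratios within a mouse was 0.49 (mouse 6) to 0.83 (mouse 11). Pairs of unrelated genes were not compared, so the gaps are not shown to be particular to these enzymes. The difference between 2 genes within a mouse does not depend on how the libraries are scaled. In succinate-CoA ligase, the log2 ratio of Suclg1 exceeded that of Suclg2 by 0.89 ± 0.14 (SD, n = 10 mice; range 0.71 to 1.08) and that of Sucla2, the ATP-specific beta subunit, by 0.40 ± 0.19 (range 0.17 to 0.74). Sucla2 in turn exceeded Suclg2 by 0.49 ± 0.16, so the alpha subunit, the ATP-specific and the GTP-specific beta subunit kept this order in 10 of 10 mice.

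Within the NAD+-dependent isocitrate dehydrogenase, Idh3a lay below its partner Idh3g by 1.41 ± 0.56 on average, in 10 of 10 mice, and below Idh3b by 0.86 ± 0.45 in 9 of 10, with mouse 6 the exception. Idh3g, a regulatory subunit, was itself higher in polysome RNA of GFP LNA mice (log2 fold change 0.52, edgeR FDR 1.15e-04). In the 2-oxoglutarate dehydrogenase complex, Dlst exceeded Ogdh by 0.15 ± 0.094 (range 0.068 to 0.34), with the smallest SD of the pairs compared. Dld, the dihydrolipoamide dehydrogenase that this complex shares with pyruvate dehydrogenase, lay 0.81 ± 0.35 below Dlst. Mdh2 and its cytosolic counterpart Mdh1 differed by 0.16 ± 0.16, and Mdh2 and Fh1, which act in succession, by 0.10 ± 0.16.

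**Figure D4:**
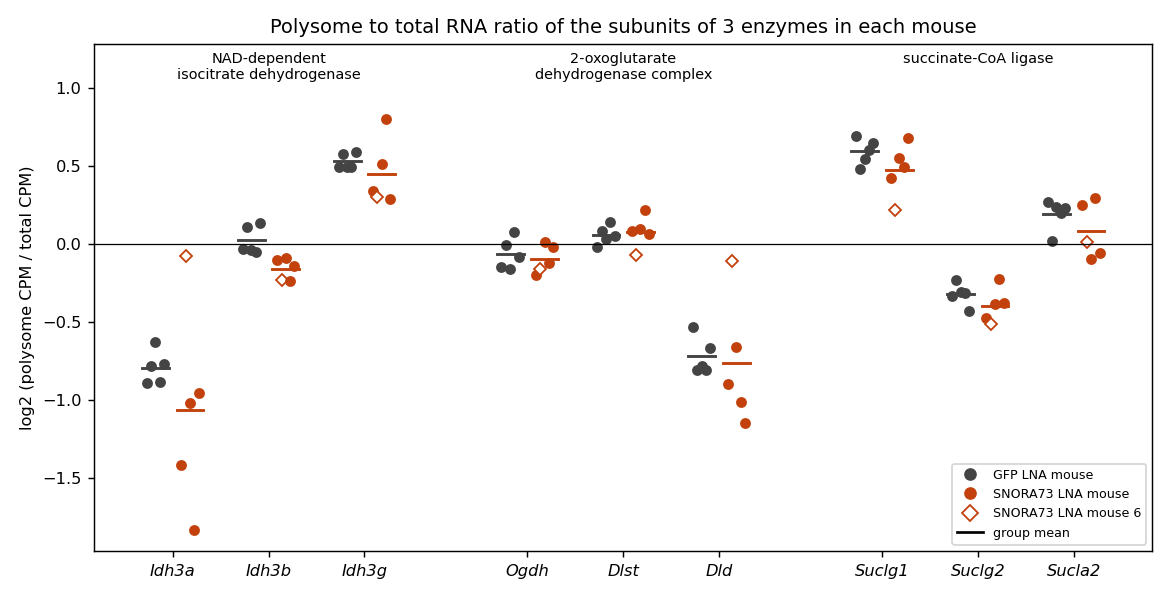
Log2 ratio of polysome to total CPM for the subunits of NAD+-dependent isocitrate dehydrogenase, 2-oxoglutarate dehydrogenase and succinate-CoA ligase. Each point is 1 mouse (5 GFP LNA, 5 SNORA73 LNA). Suclg1 lies above Suclg2 in every mouse, by 0.71 to 1.08, and Dlst above Ogdh by 0.068 to 0.34.

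Among the 32 other metabolic genes tested, 14 were called between the RNAs of GFP LNA mice, 5 higher and 9 lower in polysome RNA, beside the 48.7% of all genes given above. Of the other TCA cycle genes, the succinate dehydrogenase subunits parted: Sdhb, the iron-sulfur subunit, was higher (0.64, edgeR FDR 4.22e-05) and Sdha, the flavoprotein, lower (-0.30, FDR 0.00371), while Dld was the lowest (-0.73, FDR 5.47e-05). In the pyruvate dehydrogenase list, Pdk2, a kinase of the complex, was higher (0.63) and Pdha1, its catalytic subunit (-0.47), and the phosphatases Pdp1 (-1.14) and Pdp2 (-0.53) were lower. Pdp1 lay near the low-count filter, at a mean of 0.45 CPM in polysome RNA. Of the anaplerotic list Pck2 was higher (0.56) and Glud1, which feeds glutamate into the cycle, lower (-0.48). Of the cytosolic counterparts Mdh1 was higher (0.45), and Me1 (-0.65), Idh1 (-0.58) and Aco1 (-0.28) were lower.

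The isocitrate dehydrogenases that use NADP+ thus had opposite signs, with matrix Idh2 higher and cytosolic Idh1 lower in polysome RNA of controls, and the malate dehydrogenases Mdh2 and Mdh1 had the same sign. In SNORA73 LNA mice, where 33.0% of all genes were called, 7 of 32 were, 0 higher and 7 lower: Pdp1 (-1.49), Pdk4 (-0.91), Glud1 (-0.74), Dld (-0.73), Me1 (-0.71), Idh1 (-0.67) and Pdha1 (-0.40). Pdp1 lay near the low-count filter here too, at a mean of 0.43 CPM in polysome RNA. With the mouse as a block the counts were 21 of 32 in GFP LNA mice (63.0% of all genes) and 14 of 32 in SNORA73 LNA mice (46.2%). These counts were near the shares of the genes at large. Of the 14 in SNORA73 LNA mice, 11 were lower and 3 higher. The higher ones were Sdhb (0.51, edgeR FDR 0.00533), Pdk2 (0.49, FDR 0.00257) and Idh3g (0.45, FDR 0.00666), which were not called without the block.

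**Figure D5:**
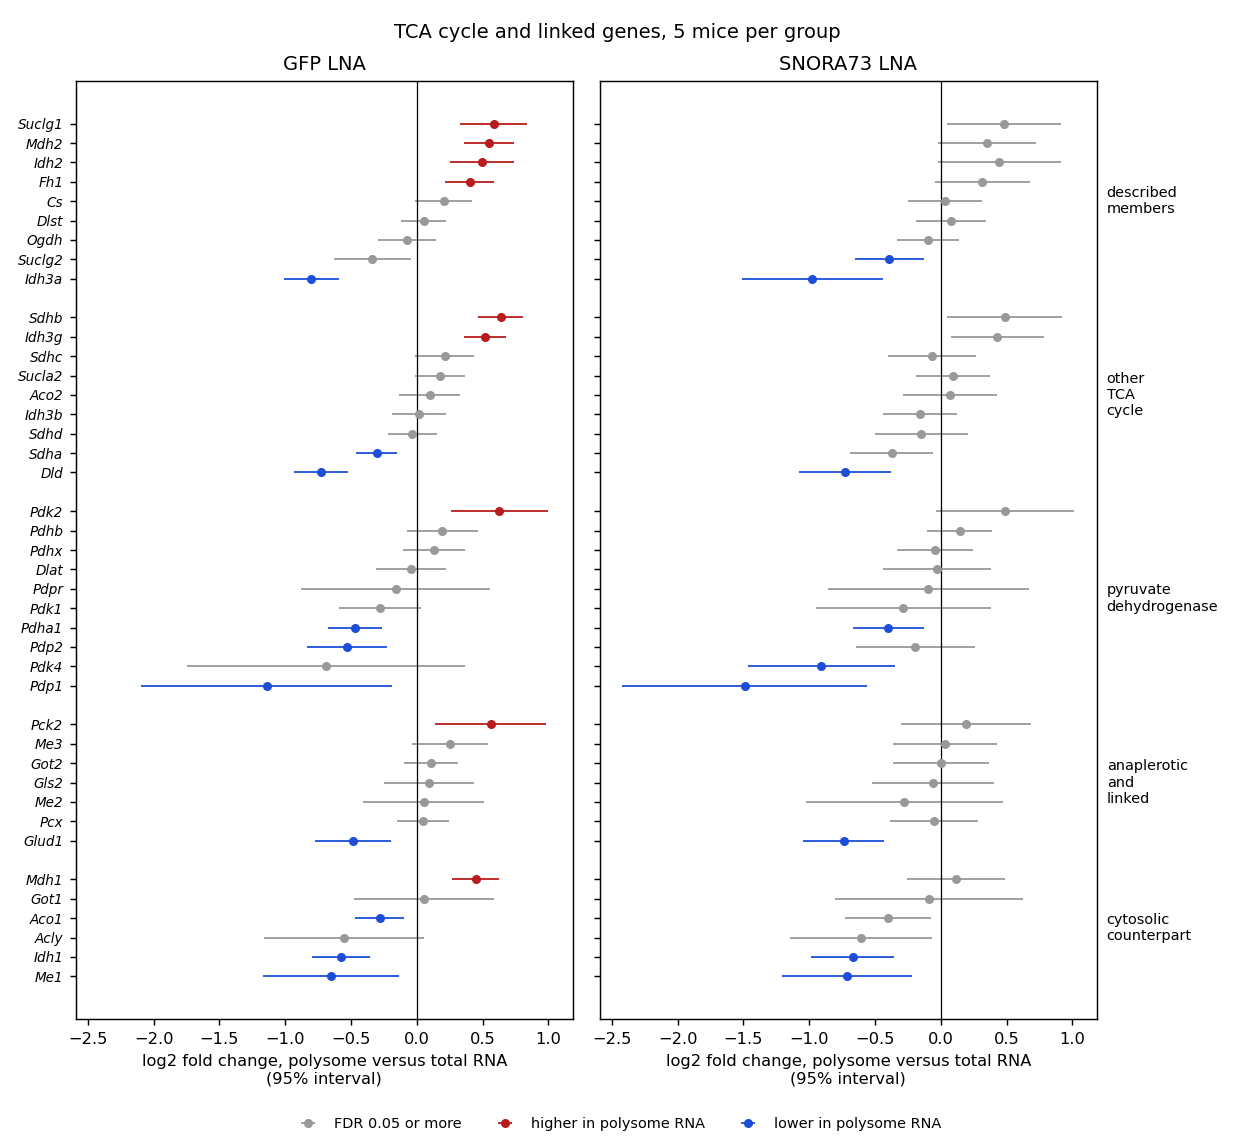
Log2 fold change of polysome over total RNA with its 95% interval for the 9 members and 32 linked genes, in GFP LNA and SNORA73 LNA mice (n = 5 each), without the block. Red marks genes higher and blue genes lower in polysome RNA at an FDR under 0.05; among the members these are Suclg1, Mdh2, Idh2 and Fh1 (higher) and Idh3a (lower) in GFP LNA mice, and Idh3a and Suclg2 (lower) in SNORA73 LNA mice.

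RNA of other cell types also differed between polysome and total RNA. The 4 erythroid genes summed to 306 to 590.0 CPM in total and 548 to 942 CPM in polysome RNA of GFP LNA mice, where 3 of 4 were called higher, and the 5 stellate cell genes to 206 to 268 and 119 to 178 CPM, where 3 of 5 were called lower. The sinusoidal endothelium genes summed to 80.4 to 99.5 and 71.8 to 82.5 CPM with 3 of 5 lower, and of the Kupffer cell genes 0 of 5 were called, beside 24.7% of all genes higher and 24.0% lower. In SNORA73 LNA mice the erythroid sums were 175 to 541 and 268 to 884 CPM (0 of 4 called). The stellate sums were 177 to 263 and 128 to 179 CPM (2 of 5 lower). Of the sinusoidal endothelium genes 1 of 5 was lower there, and of the Kupffer cell genes 0 of 5 were called. Of all genes in SNORA73 LNA mice, 17.2% were higher and 15.8% lower. Of the 6 hepatocyte genes, edgeR called Ttr higher (0.87) and Cps1 lower (-1.28) in GFP LNA mice, and 4 were not called. The part of these cell types in the members' ratios was not tested.

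Across the 10 livers the members' total RNA levels were compared pair by pair. Over log2(CPM + 0.5) in total RNA, 19 of 36 pairs had a positive Pearson correlation and the median was r = 0.091, with points that share depth, scaling and the 2 LNAs. The highest were Idh2 with Dlst (r = 0.85), Idh3a with Fh1 (0.85), Dlst with Mdh2 (0.81) and Ogdh with Suclg2 (0.79), and the lowest was Cs with Idh3a (-0.67). Suclg1 was most like Mdh2 (0.73), not its partner Suclg2. These values depended on mice 9 and 10. Without them 24 of 36 pairs were positive with a median of 0.18, Cs with Idh2, its nearest member, went from 0.74 to 0.21, Idh2 with Suclg1 from 0.28 to 0.88, then the highest pair, Idh2 with Fh1 from -0.47 to 0.32 and Cs with Idh3a from -0.67 to -0.35. Those of Idh2 with Dlst (0.76) and Ogdh with Suclg2 (0.74) moved less.

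Among the genes most like the mean of the members, of 6226 with a mean CPM above 10, were Acot7 (r = 0.92), an acyl-CoA thioesterase, Slc10a1 (0.91), the bile acid transporter NTCP, Chmp7 (0.90), an ESCRT-III protein, and Aldoa (0.90), a glycolytic aldolase. The median over all genes compared was 0.023 and the 90th percentile 0.52 (n = 10 libraries).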

How the data were processed

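Total and polysome RNA of livers from 10 mice, 5 per LNA, had been sequenced as 20 libraries. The authors trimmed and filtered reads with fastp, removed rRNA reads with Bowtie2 and SAMtools, estimated transcript abundance with kallisto and summed it to genes; the deposited values are estimated counts, of which 14.3% were not whole, and were rounded. The submitters' processing notes name GRCm38. Each of the 20 columns was matched to 1 sample by its label, and symbols to 51903 of 53028 identifiers. Because kallisto divides reads among compatible transcripts, counts of genes with near-identical copies are uncertain.

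Testing used edgeR 4.0.16 (quasi-likelihood, R 4.3.3) on genes whose CPM exceeded 0.5 in 4 or more libraries of the fit, after TMM normalization, without a block, over all such genes, with Benjamini-Hochberg adjustment and an FDR threshold of 0.05 in either direction. Library totals ranged from 14852951 to 42023390, and the lowest member count was 115. The tests were run on simulated counts beforehand. Levels are not compared between genes, since lengths were not used. The sources do not say whether each mouse stands for a separate cage or batch. Between the LNAs in total or polysome RNA, p-values measure the spread between these mice. Without the block, fits of polysome against total RNA and of the interaction treated both libraries of a mouse as independent. With the block, p-values measure how far the polysome to total difference varied from mouse to mouse.

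Total and polysome libraries with the same number come from the same mouse. Their deviations from the group means correlated with r = 0.174 to 0.802, over 0.1 in 10 of 10 mice. Within an LNA, the total library correlated best with the polysome library of its own mouse in 9 of 10, mouse 6 being the exception. The mouse as a block was an alternative, as were limma-voom (limma 3.58.1), DESeq2 1.42.0, DESeq2 size factors, library totals, no filter, a filter at a CPM of 1 in all libraries, 1 model for the 20 libraries, exclusion of mitochondrially encoded genes, and leaving out each mouse, or mice 9 and 10 together. The study left out 1 mouse per group without naming it, so all 10 were used, and its limma was replaced by edgeR as the main test.

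The members, lists and tests were chosen with earlier results of these data known. Named were all members, and of each other list the genes called or, where there were none or more than 4, the 2 highest and 2 lowest; in the text the lists were joined where none was called. The subunit pairs were added after the values were seen. Of the 5 genes whose total RNA levels correlated best with the members' mean, also named by rule, 1 is not reported here.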

Additional observations from a re-analysis of the deposited data

Results flagged for a closer look

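In groups of 5 libraries, 54 sets of values (the CPM of each member in each of the 4 groups and its log2 ratio under each LNA) were examined for a sample far from the others, taken as a gap to its neighbour above 0.71 of the group's range. Chance gives such a gap in about 1 of 20 groups, and 2 of 54 had one. Both were highest values of GFP LNA mouse 9 in total RNA. Ogdh was at 94.7 CPM in mouse 9 with the next control at 78.8 CPM, a gap of 0.716 of the range. Suclg2 was at 255 CPM with the next control at 190.3 CPM, a gap of 0.725 of the range. The same library correlated least with its own group among the controls (r = 0.976), and without it the log2 fold changes between the LNAs in total RNA were 0.22 for Ogdh (edgeR FDR 0.416) and 0.32 for Suclg2 (FDR 0.293), against 0.16 and 0.20 with it.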

How the results depend on the processing

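Between the LNAs no alternative called a member in total RNA, in polysome RNA or in the interaction. The 32 linked genes gave 0 calls throughout, except for 1 in polysome RNA with DESeq2. Over all genes, leaving out 1 mouse gave 1 to 59 calls in total RNA and 0 to 17 in polysome RNA, the highest without mouse 9 in each, DESeq2 gave 75 and 281, and the single fit of 20 libraries 4 and 317. Library totals in place of TMM brought the median of all genes to -0.14 in total and -0.17 in polysome RNA, from 0.0070 and -0.011. These totals turned the sign of Suclg1 (-0.14), Fh1 (-0.015) and Mdh2 (-0.12) in total RNA, of Ogdh (-0.034), Suclg2 (-0.021) and Fh1 (-0.14) in polysome RNA, and of the interaction of Dlst (-0.00050). In total RNA, Suclg1 also turned negative with DESeq2 size factors (-0.00026), limma-voom (-0.018), DESeq2 (-0.00016), no filter (-0.014), a CPM above 1 (-0.0076) and without mice 9 and 10 (-0.070), Mdh2 with limma-voom (-0.00022), and Cs was 0.033 without mice 9 and 10. Leaving out 1 mouse gave -0.079 to 0.095 for Suclg1 and -0.092 to 0.092 for Mdh2 in total RNA, -0.20 to 0.14 for Idh3a and -0.050 to 0.12 for Fh1 in polysome RNA, and interactions of -0.018 to 0.055 for Dlst and -0.16 to 0.067 for Idh2. The interaction of Idh2 was 0.048 with the replicate block and without mouse 6. Without 1 mouse, total RNA values were -0.12 to -0.020 for Cs, -0.40 to -0.14 for Idh2 and -0.12 to -0.033 for Dlst. Those of Idh3a were 0.072 to 0.25, of Fh1 0.055 to 0.19 and of Suclg2 0.15 to 0.32. In polysome RNA they were -0.43 to -0.20 for Idh2, -0.10 to -0.015 for Dlst and 0.085 to 0.23 for Suclg2. All of these missed the threshold, and signs near 0 were not stable.

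Polysome against total RNA gave steadier calls in GFP LNA mice: 5 to 6 members and 11 to 12 linked genes were called when 1 mouse was left out, beside 41.2% to 47.1% of all genes. Suclg2 was also called with limma-voom (FDR 0.0494), DESeq2 (0.0337), no filter (0.0390), a CPM above 1 (0.0268), without mitochondrially encoded genes (0.0454) and in the single fit (0.0387), and Cs with library totals (FDR 0.0444). In SNORA73 LNA mice the members called were 1 with library totals (30.8% of all genes), 1 with no filter (14.2%), 4 in the single fit (38.0%), 5 with the mouse as a replicate block (46.2%), 6 with the block and without mouse 6 (49.5%), and 1 to 2 when 1 mouse was left out (21.3% to 31.9%). The linked genes called were 11 with DESeq2 (36.6% of all genes), 14 with the block, 14 with the block and without mouse 6, and 4 to 10 when 1 mouse was left out, with 4 without mouse 4 (23.2%), 11 (27.2%) or 12 (21.3%). Suclg2 missed the threshold with library totals (FDR 0.0636) and no filter (0.0621). Cs was -0.0071 with no filter, -0.031 with a CPM above 1 and -0.031 to 0.059 when 1 mouse was left out. The block changed no other call of a member than those given beside the results. The causes were not tested. The main fits had 5 mice per group. Their 95% intervals for the members, between the LNAs and in the interaction, reached log2 values of up to 0.76 in size.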
